A study of Mus musculus with 12 samples.

Results

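The genes described here are the 3 receptors through which hepatocytes sense foreign compounds, the oxysterol receptor of the hepatocyte, the receptor with which most of these pair, and the enzyme that feeds electrons to the cytochromes they control. They were chosen by name, and all 6 of 6 were found among the 15910 genes of the deposited table: Nr1i3 (the constitutive androstane receptor CAR), Nr1i2 (the pregnane X receptor PXR), Ahr (the aryl hydrocarbon receptor), Nr1h3 (the liver X receptor LXR alpha), Rxra (the retinoid X receptor RXR alpha) and Por (cytochrome P450 reductase). RNA-seq had been made from hepatocytes freed by liver perfusion from female Balb/c mice that were 8 weeks old when injected. The mice received 4T1 cells, a mammary carcinoma line derived from Balb/c mice, or PBS at the orthotopic site, which for 4T1 cells is the mammary fat pad. Livers were taken at day 4 or day 21, giving 4 groups of 3 mice and 12 libraries: PBS day 4, tumour day 4, PBS day 21 and tumour day 21. No transgene or deletion is named for any group, and the label gives hepatocytes as the cell type throughout. Nothing in the labels says whether the mice of a group came from separate litters or cages, so p-values measure the spread between these mice.

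CAR and PXR are nuclear receptors that bind DNA as pairs with RXR alpha and switch on genes for drug metabolism, among them members of the Cyp2b, Cyp2c and Cyp3a families. The aryl hydrocarbon receptor is not a nuclear receptor; it waits in the cytosol with chaperones, pairs with Arnt after binding a ligand and induces the Cyp1 family. LXR alpha is activated by oxysterols, pairs with RXR alpha and raises genes of sterol export and lipid synthesis. Microsomal cytochromes P450 depend on the reductase encoded by Por for their electrons, so it serves the products of all these programmes.

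Recovered depth ran from 9375095 reads in a tumour day 21 library to 21809166 in a PBS day 21 library. The 6 genes held between 219 reads (Ahr, lowest library) and 19710 reads (Por, highest library) per library. Summed hepatocyte markers (Alb, Apoa1 and Cyp2e1 the most abundant of 10) lay between 1560738 and 3427124 normalized counts in every library, and 0 of 10 passed the test at day 21. Within that range the tumour day 21 sums, 1560738 to 2046844, lay below those of PBS day 21, 2134326 to 2465716. Markers of neutrophils and immature myeloid cells also stood at high levels in the tumour day 21 libraries. Their 15 genes summed to 18026 to 105171 normalized counts there, the highest in replicate 7, against 22.7 to 30.0 in PBS day 21, where 3 of the 15 were at 0 in every library. In bulk RNA, fewer cells of a type and less RNA per cell cannot be told apart.

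The 250 bases before the annotated start are shown for Nr1i3 and Por, because these genes varied together from mouse to mouse, as described below. The sequences are those of RefSeq on GRCm38.p6, printed 5′ to 3′ on the strand of the gene. Capitals mark the E-box CACGTG in Nr1i3 and the aryl hydrocarbon receptor core GCGTG (or its reverse complement) in Por.
Nr1i3, chr1:171213720-171213969, plus strand: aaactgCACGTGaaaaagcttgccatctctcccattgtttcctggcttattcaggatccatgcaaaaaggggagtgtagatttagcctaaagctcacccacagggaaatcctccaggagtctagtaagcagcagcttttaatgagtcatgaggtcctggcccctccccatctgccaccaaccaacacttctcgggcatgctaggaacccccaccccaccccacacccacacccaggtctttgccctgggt
Por, chr5:135688895-135689144, plus strand: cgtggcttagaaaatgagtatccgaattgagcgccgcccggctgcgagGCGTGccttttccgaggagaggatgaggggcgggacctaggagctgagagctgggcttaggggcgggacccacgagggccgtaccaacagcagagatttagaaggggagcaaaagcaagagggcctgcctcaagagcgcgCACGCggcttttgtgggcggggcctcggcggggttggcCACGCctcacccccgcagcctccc
The Nr1i3 window held 1 E-box at -244 to -239 from the start, a motif present in 6.02% of 32851 promoter windows of the same length. The Por window held 3 aryl hydrocarbon receptor cores, beginning at -202, -62 and -24, and 28.2% of all windows held at least 1 such core. Neither window held the D-box TTATGTAA (0.819% of windows) or the nuclear receptor hexamer AGGTCA (14% of windows). The E-box contains no copy of the core, and both strands were searched. RefSeq windows were at hand for 5 of the 6 genes. Those of Nr1i2 and Nr1h3 (2 alternative starts) held none of the 4 motifs, and of the 2 windows of Rxra the one further downstream held 2 hexamers. A match describes letters only, and a window without a match says nothing of the factor.

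All 6 genes were abundant enough to be tested in every comparison. Levels of different genes are compared per kilobase of annotated exon, as the mean normalized count over the 12 libraries. Por was the highest at 2500.2 per kilobase, followed by Rxra at 1156, Nr1h3 at 593, Nr1i2 at 497, Nr1i3 at 409 and Ahr at 101. Within that order, Nr1h3, Nr1i2 and Nr1i3 did not differ beyond their spread in PBS day 4 mice, where they stood at 553 ± 32.8, 554 ± 243 and 536 ± 231 per kilobase (SD, n = 3). Nr1h3 exceeded Nr1i3 beyond their SDs in PBS day 21 (618 ± 45.5 and 412 ± 138) and tumour day 21 (570 ± 41.2 and 307 ± 101). In tumour day 4 mice Nr1h3 exceeded Nr1i2 in this way, at 632 ± 68.5 and 535 ± 22.9. Por and Rxra overlapped in spread in PBS day 21 mice, at 1948 ± 1464 and 1067 ± 203. Ahr had the lowest group mean per kilobase in each of the 4 groups, from 75.8 in tumour day 4 to 125 in PBS day 4.

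**Figure D1:**
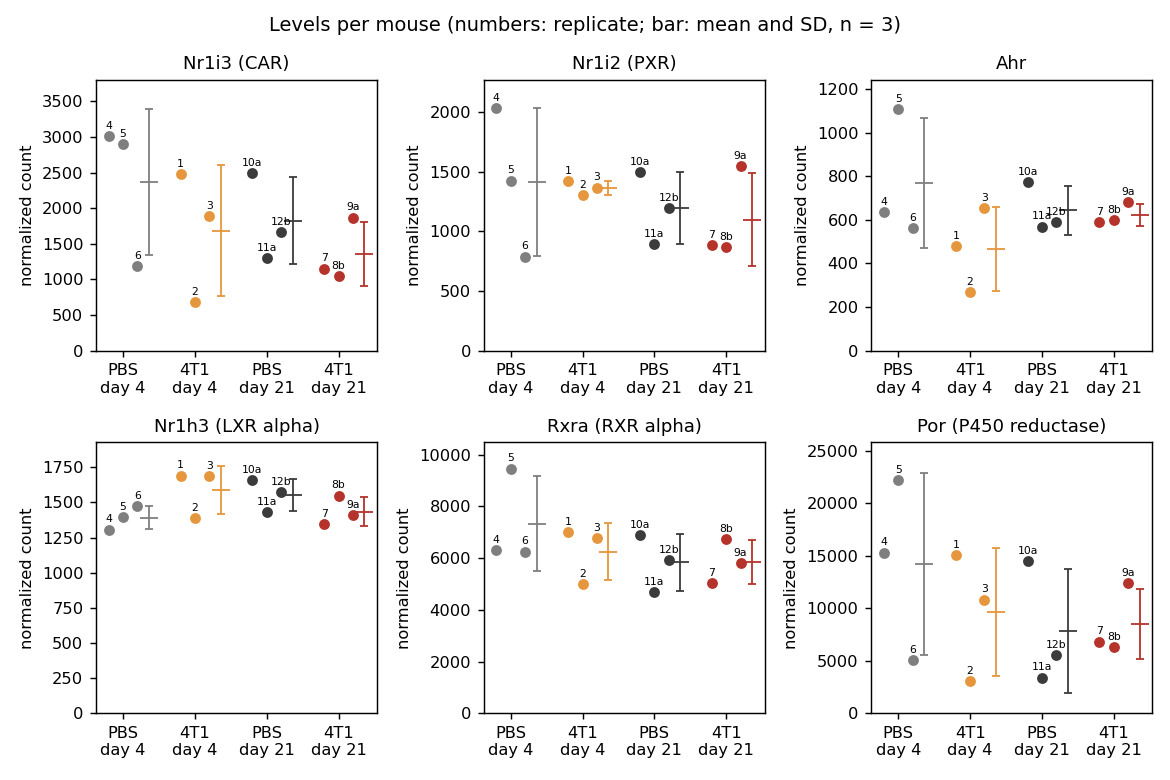
Normalized count of each of the 6 genes (y axis, from 0) in the 12 mice by group (4T1 marks the tumour groups), with replicate numbers above the points and bars for mean and SD (n = 3). In every panel the groups overlap; Por runs from 3108 to 22219 and Nr1h3 only from 1307 to 1691.

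None of the 6 genes passed the test in any comparison, and their groups overlapped in every pair of groups. Tumour and PBS mice at day 21 differed in 992 of 12631 tested genes (7.85%) by limma with an adjusted p under 0.05. Groups did not overlap for 32.6% of tested genes in that comparison, against 0 of these 6. At day 4, 0 of 12631 genes (0%) were called by limma, with 761 at an unadjusted p under 0.05 (6.02%), 0 by edgeR and 1 by DESeq2, and 8.77% of genes had groups without overlap. The tumour effects of day 4 and day 21 differed for 87 genes (0.689%), of which the larger part was more positive at day 21 (0.641% of tested genes), and none was among the 6. That count was 0 by edgeR, 479 by DESeq2, 1 when the mean had to reach 50, and 0 to 173 with a library left out. What the intervals of the 6 genes allow varied widely, and is given gene by gene.

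Nr1i3, at ENSMUSG00000005677 on chr1:171213970-171220701 of GRCm38, encodes CAR, which sits in the cytosol until activated and then induces Cyp2b genes. Its normalized counts were 3005, 2902 and 1192 in PBS day 4 mice and 2480.0, 678 and 1893 in tumour day 4 mice. At day 21 they were 2493, 1301 and 1667 in PBS mice and 1153, 1048 and 1867 in tumour mice. Each group thus held high and low animals, and the 4.43-fold range over the 12 mice lay wholly within the day 4 mice. Group means fell in the order 2366 ± 1018 (PBS day 4), 1821 ± 611 (PBS day 21), 1684 ± 919 (tumour day 4) and 1356 ± 446 (tumour day 21), and no neighbours in that order differed beyond their SDs. Tumour mice were at a log2 fold change of -0.42 against PBS at day 21 (95% interval -1.51 to 0.67, limma adjusted p = 0.667). At day 4 the value was -0.57 (-1.66 to 0.52, adjusted p = 0.892), and the effects of the days differed by 0.15 (adjusted p = 0.951). With 1 library left out, the day 4 value ran from -1.005 without PBS day 4 replicate 6 to -0.010 without tumour day 4 replicate 2, and the day 21 value from -0.68 without tumour day 21 replicate 9a to -0.17 without PBS day 21 replicate 10a. A fall of more than 1 log2 unit was inside both intervals, so this depth of replication could not separate it from no change.

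Nr1i2, at ENSMUSG00000022809 on chr16:38248323-38294824, encodes PXR, the receptor for a broad set of drugs and bile acids and the main inducer of Cyp3a11. PBS day 4 mice had 2029.8, 1425 and 788 normalized counts, and tumour day 4 mice 1423, 1306 and 1365. PBS day 21 mice had 1496, 893 and 1193, and tumour day 21 mice 883, 866 and 1546. The tumour day 4 mice lay close together, at 1365 ± 58.3, inside the wider range of their controls at 1414 ± 621. The day 4 log2 fold change was 0.052, with a 95% interval of -0.65 to 0.75 (limma adjusted p = 0.994). For day 21 it was -0.14, with an interval of -0.84 to 0.56 (limma adjusted p = 0.833). Both values changed sign with single libraries left out, running from -0.32 to 0.36 at day 4 and from -0.42 to 0.035 at day 21.

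Ahr, at ENSMUSG00000019256 on chr12:35497974-35535038, is the receptor for dioxins and for indoles from diet and tryptophan. Its normalized counts were 635, 1108 and 561 in PBS day 4 mice and 479, 269 and 653 in tumour day 4 mice. Day 21 values were 772, 569 and 590.3 in PBS mice and 589, 597 and 681 in tumour mice. The day 4 groups overlapped at 1 tumour mouse, which was above 2 of the 3 controls, and the day 21 groups covered nearly the same range. The day 4 log2 fold change of -0.74 was the only value of the 6 genes whose 95% interval did not include 0 (-1.41 to -0.074, unadjusted p = 0.0324), and it did not pass after adjustment (limma adjusted p = 0.815). It was -0.39 without tumour day 4 replicate 2 and -0.44 without PBS day 4 replicate 5. At day 21 the value was -0.039 (-0.71 to 0.63, adjusted p = 0.954), and the effects of the days differed by 0.70 (-0.24 to 1.65, adjusted p = 0.519).

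Nr1h3, at ENSMUSG00000002108 on chr2:91184061-91202834, encodes LXR alpha and was the steadiest of the 6 genes. Its normalized counts were 1307, 1398 and 1471 in PBS day 4, 1691, 1389.9 and 1686 in tumour day 4, 1656, 1430.2 and 1574 in PBS day 21, and 1346, 1548 and 1409 in tumour day 21. The highest mouse was only 1.29 times the lowest. Its 95% intervals were narrow. On the log2 scale the day 4 tumour mice were at 0.19 against PBS, with an interval of -0.095 to 0.47 (limma adjusted p = 0.868). The day 21 tumour mice were at -0.11, with an interval of -0.40 to 0.17 (limma adjusted p = 0.651). Changes larger than about 0.47 in either direction lay outside both 95% intervals.

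Rxra, at ENSMUSG00000015846 on chr2:27676440-27762957, encodes the common partner of CAR, PXR and LXR alpha. Its normalized counts were 6293, 9453 and 6251 in PBS day 4 and 6992, 4984 and 6761 in tumour day 4. At day 21 they were 6892, 4681 and 5918 in PBS and 5018, 6734 and 5801 in tumour mice. A single PBS day 4 mouse stood above the others, and the day 21 groups had nearly the same mean, 5831 ± 1108 and 5851 ± 859. On the log2 scale the tumour mice of day 4 were at -0.22, with a 95% interval of -0.70 to 0.26 (limma adjusted p = 0.903). Those of day 21 were at 0.013, with an interval of -0.46 to 0.49 (limma adjusted p = 0.982). The day 4 value was -0.022 without PBS day 4 replicate 5, -0.065 without tumour day 4 replicate 2 and -0.32 without PBS day 4 replicate 6.

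Por, at ENSMUSG00000005514 on chr5:135670033-135735326, was the most variable of the 6. The promoter window printed above precedes the RefSeq start, which lies inside the longer span that GENCODE gives the gene. PBS day 4 mice had 15301, 22219 and 5079 normalized counts, and tumour day 4 mice 15059, 3108 and 10827. PBS day 21 mice had 14517, 3415 and 5566, and tumour day 21 mice 6835, 6335 and 12379. The highest mouse of each group lay between 12379 and 22219 and the lowest between 3108 and 6335, with a 7.15-fold range overall. Day 4 tumour mice were at -0.59 on the log2 scale, with a 95% interval of -2.18 to 0.996 (limma adjusted p = 0.929). Day 21 tumour mice were at 0.32, with an interval of -1.27 to 1.90 (limma adjusted p = 0.835). Falls of 1 log2 unit lay inside both intervals. The day 21 value turned to -0.15 without PBS day 21 replicate 11a and was 0.90 without 10a. The day 4 value ran from -1.21 without PBS day 4 replicate 6 to 0.090 without tumour day 4 replicate 2.

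**Figure D2:**
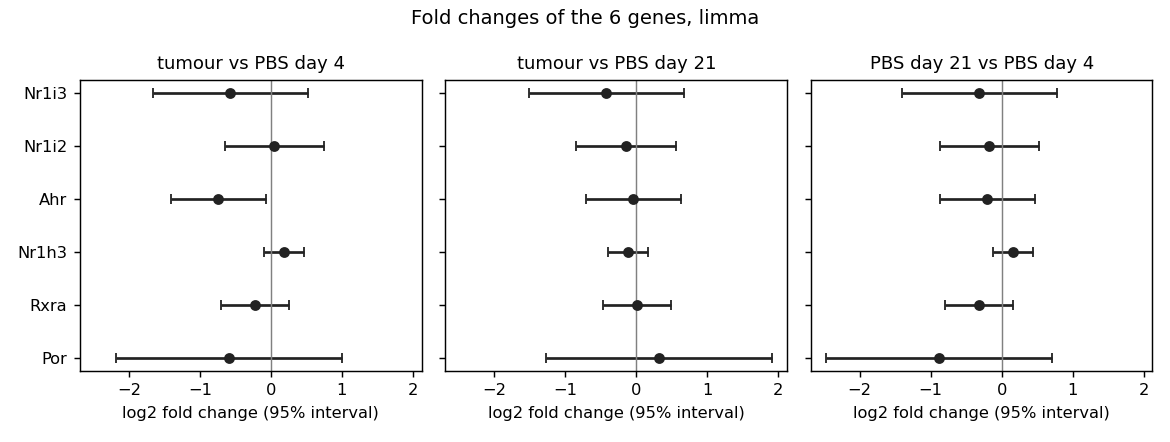
Log2 fold changes of the 6 genes (x axis; points, with bars for the 95% interval from limma) for tumour against PBS at day 4 and day 21 and for PBS day 21 against PBS day 4. All intervals but that of Ahr at day 4 include 0; the interval of Nr1h3 is narrow and that of Por wide.

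Nor did any of the 6 pass between the control groups of the 2 days. PBS day 21 against PBS day 4 gave 0 calls over all genes by limma (0%), with 504 at an unadjusted p under 0.05 (3.99%), 0 by edgeR and 5 by DESeq2, and 9.95% of genes had groups without overlap. The log2 fold changes of the 6 genes ran from -0.88 (Por) to 0.16 (Nr1h3), with limma adjusted p between 0.938 and 0.957. Between the tumour groups, day 21 against day 4, 1921 genes (15.2%) were called and 32.9% had groups without overlap, and again none of the 6. The values there ran from -0.37 (Nr1i2) to 0.50 (Ahr, limma adjusted p = 0.312). These comparisons share libraries with the tumour comparisons and are not independent of them.

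The 6 genes differed widely in how much mice of the same group varied. The within-group SD of the log2 value was 1.01 for Por, larger than that of 95.7% of tested genes, against a median of 0.28 over all of them. Nr1i3 followed at 0.70, Nr1i2 at 0.46, Ahr at 0.44 and Rxra at 0.28. Nr1h3 had 0.12, and only 3.93% of tested genes varied as little. The same animals were low for several genes. Tumour day 4 replicate 2 was below its group mean in all 6, by 1.36 log2 units in Por and 1.12 in Nr1i3. PBS day 4 replicate 6 was below its group mean in all but Nr1h3, and PBS day 21 replicate 11a in all 6.

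The closest pair among the 15 pairs of genes was Nr1i3 and Por. Over the 12 libraries their log2 values correlated at r = 0.90 (permutation p = 0.00016, adjusted over the 15 pairs p = 0.0024) and at rho = 0.87 (adjusted permutation p = 0.0093). Without the 2 libraries farthest from the median of Nr1i3 the value was r = 0.86, and with group means removed it was 0.96. After adjustment r passed for 7 of the 15 pairs and rho for 4, namely Nr1i3 with Por, Nr1i3 with Nr1i2, Nr1i2 with Por, and Rxra with Por. The relation of Ahr with Por (r = 0.70, adjusted permutation p = 0.0258) fell to r = 0.33 without the 2 libraries farthest from the Ahr median and rests on those. Nr1h3 followed none of the others over the 12 libraries, its r lying between -0.010 and 0.32, although with group means removed it reached 0.73 with Rxra.

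Genes with the most similar pattern were sought among 9643 genes with a mean of at least 50, by Pearson r over the 12 libraries. For Por these were Rhbdd2 (r = 0.977), Fam102a (0.956) and Fbxo31 (0.950), and for Nr1i3 they were Sord (0.956), Amigo2 (0.948) and Acot7 (0.930). Rxra was closest to Hs6st1, Igfbp4 and Yif1a (0.958 to 0.943), and Ahr to Diaph2, Tmem184b and Gab1 (0.934 to 0.924). Nr1i2 was closest to Chpt1, Arsk and Dnajb6 (0.917 to 0.902), and Nr1h3 to Rcc1l, Nags and Zfp768 (0.881 to 0.861). Over the 9 libraries without tumour day 21 all these values stayed at 0.841 or above. Between 0.083% (Nr1h3) and 1.91% (Rxra) of the 9643 genes had an r over 0.8 with the gene, 1.76% for Nr1i3 and 1.59% for Por. The points share depth and animal, and the r values are descriptions.

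Several genes of the circadian clock also differed between mice of the same group. The 8 clock genes compared were chosen after their values were seen. Arntl, which encodes the clock activator BMAL1, stood at 37.6, 9.02 and 48.8 normalized counts in PBS day 4, 6.10, 173 and 11.7 in tumour day 4, 15.7, 258 and 99.0 in PBS day 21, and 25.0, 33.3 and 31.3 in tumour day 21. The tumour day 21 mice lay close together in Arntl, although Por ran from 6335 to 12379 there. The mice with the highest Arntl, tumour day 4 replicate 2 and PBS day 21 replicate 11a, were the 2 mice with the lowest Por. Per3, a clock repressor gene that peaks opposite to Arntl in liver, was lowest in those same mice, at 248 and 144. Over the 12 libraries r was -0.86 between Por and Arntl and 0.90 between Por and Per3, and with group means removed -0.89 and 0.91. For Nr1i3 and Arntl the values were -0.65 and -0.82, for Ahr and Arntl -0.53 and -0.83, and for Rxra and Arntl -0.77 and -0.83. Nr1i2 was weaker with Arntl, at -0.36 and -0.35. Rxra and Hlf, a clock output factor, gave 0.87 and 0.90. Nr1h3 and Arntl gave -0.41 and -0.71, and Nr1h3 and Dbp, another clock output gene, 0.45 and 0.82. Nr1d1, a clock repressor, did not single out the same mice, at 825 in tumour day 4 replicate 2 and 1560.5 in PBS day 21 replicate 11a, each between the other mice of its group. Its r was still -0.65 with Nr1i2 and -0.62 with Por, or -0.84 and -0.67 with group means removed. With Ahr and Nr1h3 its r was -0.083 and 0.30. The time of day at which livers were taken is not given in the labels, and the part of the clock in these differences was not tested.

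**Figure D3:**
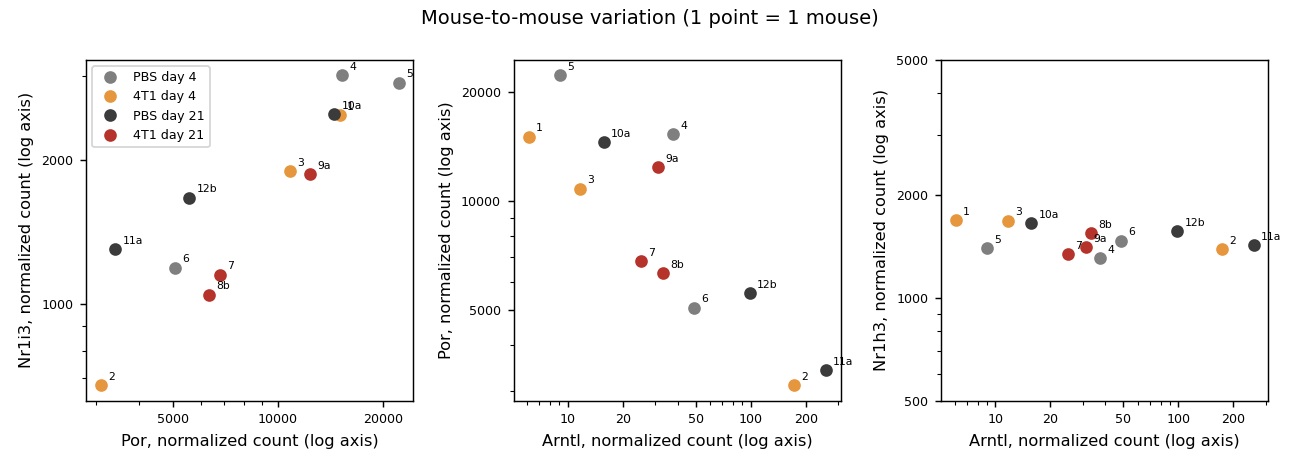
Each point is a mouse, coloured by group and marked with its replicate number, on log axes of normalized counts: Nr1i3 against Por (left), Por against Arntl (middle) and Nr1h3 against Arntl (right). Por rises with Nr1i3 and falls with Arntl in mice of each group mixed together, and Nr1h3 lies between 1307 and 1691 over the whole range of Arntl (r = -0.41, or -0.71 with group means removed).

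With log2 Arntl added to the limma fit, an alternative chosen after seeing the data, the within-group scatter of several genes shrank, and none of the 6 was called at day 4 or day 21. Nr1i3 at day 21 moved from -0.42 to -0.86 (95% interval -1.54 to -0.17, limma adjusted p = 0.114) and Por from 0.32 to -0.37 (-1.14 to 0.40, adjusted p = 0.555). Ahr at day 4 stayed at -0.76 (-1.17 to -0.35, unadjusted p = 0.00161, adjusted p = 0.434). In that fit Por changed by -0.53 log2 units per log2 unit of Arntl (limma adjusted p = 0.0251). The slopes of the other members did not pass, with limma adjusted p from 0.067 (Ahr) to 0.618 (Nr1i2). Arntl had been chosen after its values were seen beside those of Por, so the slope of Por is a description and no independent test. Over all 12630 genes, 8.6% were called at day 21 and 0% at day 4 with this covariate.

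The partners of the receptors were described from lists of known roles. Of 10 measured partners and chaperones, 0 passed the test at day 4 or day 21. Arnt, the partner of the aryl hydrocarbon receptor, had 551, 558 and 465 normalized counts in PBS day 21 and 655, 524 and 666 in tumour day 21 mice, a log2 difference of 0.23 (limma adjusted p = 0.459). Rxrb and Rxrg, the other RXR genes, had maxima of 880.4 and 140 normalized counts over the 12 libraries, and Rxrg was at -0.80 at day 21 (adjusted p = 0.248). Of 11 coregulators and upstream regulators, 0 passed at either day, although 2 passed at day 21 with only the groups compared in the fit. They included Hnf4a, a hepatocyte factor named in the study's title, with a log2 fold change of 0.030 at day 21 (limma adjusted p = 0.937), and the corepressor gene Ncor1 (-0.15, adjusted p = 0.571).

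Of 9 other nuclear receptors that pair with RXR, 0 passed at day 4 or day 21. Ppara, the fatty acid receptor, came closest at day 4. It had 2954, 2757 and 1757 normalized counts in PBS mice against 1191, 1180.0 and 1438 in tumour mice. The groups did not overlap, as for 8.77% of all tested genes, and the log2 fold change of -0.94 ± 0.27 (SE) had an unadjusted p = 0.0043 and a limma adjusted p = 0.776. At day 21 Ppara was at 0.38 (adjusted p = 0.446), and the effects of the days differed by 1.32 (adjusted p = 0.143).

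Target genes of CAR and PXR were lower in tumour mice at day 21 while the receptor transcripts did not pass the test. Of 25 measured targets, 13 were lower and 0 higher by limma at an adjusted p under 0.05, where 2.44% of all tested genes were lower and 5.42% higher. Over all genes that is 308 lower and 684 higher, a split that became 574 and 700 under quantile normalization, while this list then had 11 lower and 1 higher. The median log2 fold change of the 25 was -1.06 against 0.018 for all tested genes, and 23 of the 25 were negative. The list was chosen with earlier results of these data known, so its counts beside those of all genes are a description. Cyp2c29, a major drug-metabolizing cytochrome of mouse liver, had 22388, 31878 and 25743 normalized counts in PBS and 7584, 7511 and 14938 in tumour mice. No tumour mouse reached the lowest control, and the log2 fold change was -1.48 ± 0.25 (SE, limma adjusted p = 0.0042). Cyp2b13 had 4252, 3579 and 4031 against 1285, 602 and 1009 normalized counts, a change of -2.10 ± 0.31 (adjusted p = 0.00201), again without overlap.

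Cyp2c50 changed by -1.31 ± 0.19 (limma adjusted p = 0.00193), Cyp2c37 by -1.87 ± 0.28 (adjusted p = 0.00203) and Cyp2b9 by -1.45 ± 0.24 (adjusted p = 0.00417), all with SE. These 5 cytochrome genes were called under each of the 24 alternatives. The others called were Cyp2c54, Aldh1a1, Slco1a4, Ces2a, Gstm3, Gsta2, Cyp2b10 and Aldh1a7, with log2 fold changes from -2.59 to -0.96. Of these, Aldh1a7 was nearest to the threshold (-1.06, limma adjusted p = 0.0489) and held in 7 of 24 alternatives, and the first 6 held in 18 to 23. Cyp2b10, the classical CAR target and named here after its values were seen, had 605, 2183 and 711 normalized counts in PBS and 87.2, 84.8 and 570.2 in tumour mice. Its call was also near the threshold (-2.59 ± 0.68, limma adjusted p = 0.0438) and held in 5 of 24 alternatives, with values from -3.49 to -2.01. Of the fits with 1 library left out, it kept the call only without tumour day 21 replicate 9a. Cyp3a11, the PXR target, missed the threshold at -0.72 ± 0.22 (adjusted p = 0.066). Members of the Cyp2b and Cyp2c families are close copies. How reads that match several of them were counted is not known here, so the counts of single members are uncertain.

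**Figure D4:**
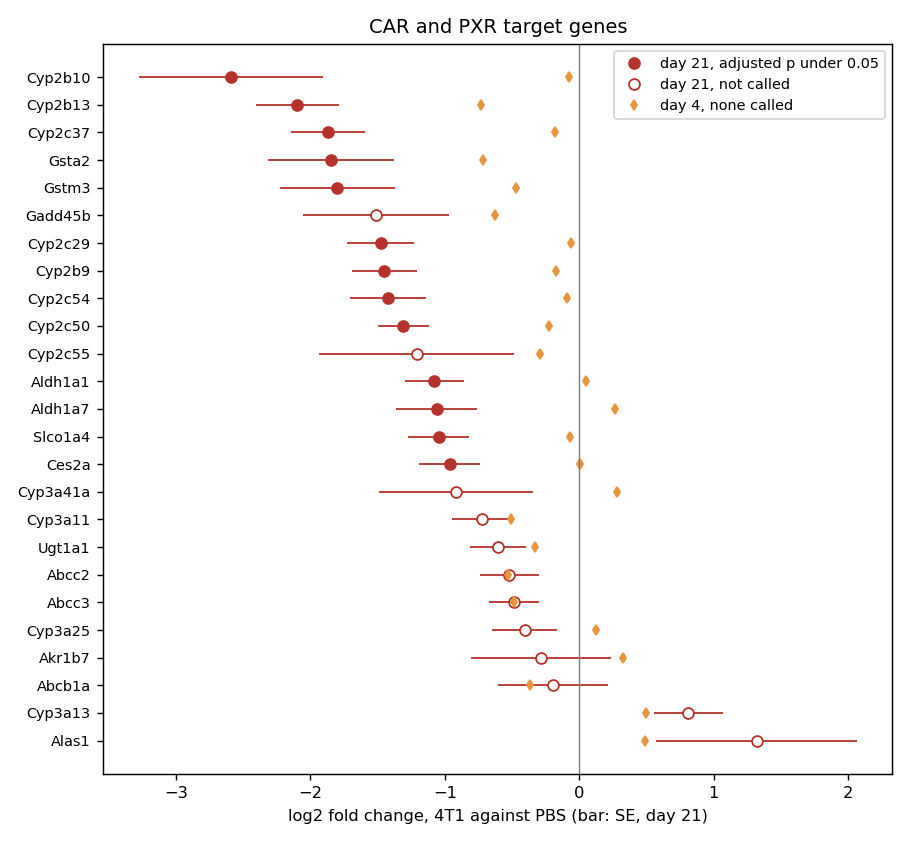
Log2 fold change of each of the 25 CAR and PXR targets (x axis) for tumour against PBS, with red circles for day 21 (filled where the limma adjusted p was under 0.05, bars for SE) and orange diamonds for day 4. At day 21, 23 of 25 points lie left of 0 and 13 are filled; at day 4 none passed.

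The number of called targets fell to 6 without tumour day 21 replicate 7, the library with the most myeloid RNA, and to 8 without PBS day 21 replicate 11a or 12b. With only the groups compared in the fit it was 7. The calls over all genes fell too in those fits, to 443 without replicate 7, 486 without 11a and 369 without 12b. Under the other scalings and tools 23 of the 25 values stayed negative, with medians from -1.06 to -0.97. With Arntl as a covariate 11 were lower, against 3.06% of all genes. The summed level of the 25 targets was 155308 to 172148 normalized counts in PBS day 21 and 84548 to 116916 in tumour day 21 mice. In the main fit, acute-phase genes, made by inflamed hepatocytes, were higher in the same libraries (20 of 22 called), and myeloid markers 15 of 15. Of all tested genes, 5.42% were higher in that comparison. The hepatocyte marker sums were lower, as given above. The part of the acute-phase, myeloid and hepatocyte genes in the fall of the targets was not tested.

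At day 4, 0 of the 25 CAR and PXR targets passed, and their median log2 fold change was -0.17 against -0.028 for all genes. The difference between the days passed for 0 of 25 by limma, Cyp2c37 being closest at -1.69 (adjusted p = 0.0748), so the fall was not shown to be larger at day 21. DESeq2 called 6 of 25 for that difference, and limma called 5 without tumour day 21 replicate 9a. Over all genes limma called 87 for that difference (0.689%) and 0 to 173 with a library left out. DESeq2 called more genes than limma there, as given above. Tumour day 21 against tumour day 4, which shares the tumour day 21 libraries, had 14 of 25 lower and 0 higher (4.71% and 10.5% of all genes, 595 and 1326 genes, against 1001 and 966 under quantile normalization and 290 and 1464 under scaling to total reads). The list's count was 8 without tumour day 21 replicate 7 and 9 with only the groups compared.

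Targets of the aryl hydrocarbon receptor were few in these cells. The table held 8 of the 10 listed genes, of which 5 were tested, and 1 was lower at day 21, where 2.44% of all tested genes were. The count was 2 without a filter, with quantile normalization, with DESeq2, with the Arntl covariate and without tumour day 4 replicate 2. The gene called by limma was Cyp1a2, the abundant constitutive Cyp1 enzyme of liver, with 12990.0, 9521 and 10042 normalized counts in PBS and 3693, 3646.5 and 4976 in tumour mice. The groups were well apart, and the change of -1.40 ± 0.26 (SE, limma adjusted p = 0.00786) was called under all 24 alternatives. At day 4 Cyp1a2 was at -0.40 (adjusted p = 0.862), with overlapping groups. Ugt1a6a was at -0.76 (adjusted p = 0.0717, called in 4 of 24 alternatives) and Nqo1 at -0.52 (adjusted p = 0.205) at day 21. Cyp1a1, the gene most strongly induced by the receptor, was below the filter, with 19.2, 11.9 and 9.08 normalized counts in PBS day 21 and 0.81, 1.66 and 1.53 in tumour day 21 mice. It was not tested in the main fit, although the fit without a filter included it. Ugt1a genes share exons and their counts are uncertain.

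No LXR target passed the test for the tumour at either day. Of 14 measured targets, 0 were called at day 4 or day 21 (1 at day 21 without tumour day 21 replicate 8b), with median log2 fold changes of -0.28 and 0.12. Srebf1, which drives fatty acid synthesis, had 6036, 7167 and 5748 normalized counts in PBS day 21 and 5308, 7689 and 7052 in tumour day 21 mice. Abca1, which exports cholesterol, had 2182, 2970.3 and 2457 against 2571, 3286 and 3057, again with overlap. Fasn was closest to the threshold at day 21, at -0.65 (limma adjusted p = 0.205). Between tumour groups, day 21 against day 4, 3 of 14 were higher, against 10.5% of all tested genes: Lpl at 2.87 (adjusted p = 0.012), Abcg1 at 2.37 (adjusted p = 0.0238) and Pltp at 1.75 (adjusted p = 0.0407).

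Lpl, Abcg1 and Pltp are also expressed by macrophages and other cells of the liver, and all 3 were highest in tumour day 21 replicate 7. Without that library, or with only the groups compared in the fit, 0 of 14 were called, and without tumour day 4 replicate 1 or 3 the count was 1. Pltp alone was also lost without PBS day 4 replicate 6, tumour day 4 replicate 2, PBS day 21 replicate 11a or 12b, or tumour day 21 replicate 9a, with values from 1.24 to 2.44 over the alternatives. Kupffer cell and macrophage markers summed to 7647 to 38180 normalized counts in tumour day 21 and 3372 to 6979 in tumour day 4, and 4 of 14 were higher. Of stellate markers 7 of 10 and of sinusoidal endothelial markers 8 of 12 were higher in the same comparison, against 10.5% of all tested genes, and their part was not tested.

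Of 12 listed genes of electron transfer by Por or beside it, 1 passed at day 21, a share near that of all tested genes (7.85%). The list includes Fdx1 and Fdxr, which belong to the separate ferredoxin chain. Sqle, the squalene epoxidase of sterol synthesis, had 1581, 749.8 and 1506 normalized counts in PBS and 1798, 3499 and 3143 in tumour mice, a rise of 1.16 ± 0.32 (SE, limma adjusted p = 0.0468). That call held in 11 of 24 alternatives, with values from 0.81 to 1.45, and was lost without PBS day 4 replicate 4, 5 or 6, tumour day 4 replicate 3, any PBS day 21 library, or tumour day 21 replicate 8b or 9a. Without replicate 9a the list had 3 calls, where fits with a library left out called 369 to 1169 genes over all. With DESeq2 the list had 5, where 1778 genes were called over all against 992 by limma. Cyb5b (-0.80, adjusted p = 0.0598), Pgrmc2 (-0.47, adjusted p = 0.0633) and Pgrmc1 (-0.56, adjusted p = 0.111), which encode haem-binding proteins, did not pass in limma, and each was called by DESeq2. Hmox1, the haem oxygenase that draws on Por, was at 1.36 at day 21 (limma adjusted p = 0.121) and was also called by DESeq2. At day 4, 0 of 12 passed. Between tumour groups, day 21 against day 4, 2 were higher and 1 lower (10.5% and 4.71% of all genes). Hmox1 was at 2.44 (limma adjusted p = 0.00921), a call held in 23 of 24 alternatives. Sqle was at 1.32 (limma adjusted p = 0.0185) and Pgrmc1 at -0.67 (adjusted p = 0.041). The list's count was 1 without tumour day 4 replicate 1 or 3 and 0 with only the groups compared. Pgrmc1 held its call in 10 of 24 alternatives, with values from -0.87 to -0.33.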

How the data were processed

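The authors deposited a single table of 15910 genes by 12 libraries. Per the submitters' processing notes, the tools were DESeq2 for normalization, HTSeq for counting, STAR 2.4.2a as aligner and cutadapt, on build GRCm38. The deposited signal is a count divided by a size factor, without length correction; the strand setting is not given in the sources used here. Dividing by each library's step gave whole reads (at least 99.994% of values within 0.1). Genes with a mean of at least 10 (12631) were tested as log2(value + 1) with limma 3.58.1 in R 4.3.3, trend and robust, 1 mean per group, Benjamini-Hochberg adjusted over all tested genes, called under 0.05. Fold changes on this scale understate low genes. Alternatives were edgeR 4.0.16 and DESeq2 1.42.0 on recovered reads, other scalings, filters and pseudocounts, and each library left out. The test was tried on simulated data. Correlations between the 6 genes used 100000 permutations. Positions and exon lengths came from GENCODE M21 (15892 genes matched), promoters from RefSeq. The 6 genes and all lists were chosen with earlier results of these data known. The 6 genes are named in every comparison; of each list, up to 5 genes with the smallest unadjusted p; others were named after their values were seen. The unit was a normalized signal, so a count test was not the main result. The values of 1 listed coregulator are not reported here.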

Additional observations from a re-analysis of the deposited data

Results flagged for a closer look

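None of the 6 genes passed the test of a difference between the tumour effects of day 4 and day 21, although differences above 1 log2 unit lay inside some intervals, such as that of Por (0.91, 95% interval -1.33 to 3.15). Among the lists set beside them, 12 of 15 neutrophil and immature myeloid markers had a larger tumour effect at day 21 than at day 4, against 0.641% of all tested genes (limma, test of the difference between the days, adjusted p under 0.05). That count of markers was 0 with edgeR and without PBS day 4 replicate 5 or any PBS day 21 library, 1 with a mean of at least 50 and without PBS day 4 replicate 4, 2 without tumour day 4 replicate 1, 3 without tumour day 4 replicate 3, 6 without PBS day 4 replicate 6, and 7 without tumour day 21 replicate 7. With DESeq2 it was 6, where 479 genes were called over all. Their summed level was 18026 to 105171 normalized counts in tumour day 21 mice and 25.7 to 548 in tumour day 4 mice, against 22.7 to 107 in PBS mice of both days. Among 22 acute-phase genes, 1 had such a difference, Mt2, which encodes a metal-binding protein induced in inflammation, with a log2 difference of 4.21 (limma adjusted p = 0.0274). No acute-phase gene was called with edgeR, with a mean of at least 50, or without PBS day 4 replicate 4 or 5, tumour day 4 replicate 3 or any PBS day 21 library, and DESeq2 called 8. In PBS mice Mt2 was at -2.91 for day 21 against day 4 (limma adjusted p = 0.694).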

How the results depend on the processing

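No paired analysis was possible because the replicate numbers of the labels do not repeat between groups. None of the 30 results of the 6 genes (6 genes in 5 comparisons) was called under any of 24 alternatives, and 15 changed sign in at least 1, with groups of 3 mice. The cause was not tested. For Nr1i2 at day 4 the value was -0.021 with edgeR and TMM, -0.049 with edgeR and RLE factors and -0.0502 with DESeq2. For tumour day 21 against tumour day 4, Por was at -0.15, -0.17 and -0.17 in those fits, Nr1h3 at 0.0095 with quantile normalization and 0.012 with scaling to total reads, and Rxra at 0.25 and 0.067. Nr1i2 in PBS day 21 against day 4 was at 0.020 with total scaling. With log2 Arntl as a covariate, Por at day 21 was at -0.37, Rxra at day 21 at -0.16, the Nr1i3 difference between days at -0.26, and PBS day 21 against day 4 at 0.19 for Nr1i3 and 0.12 for Ahr.

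Leaving out 1 library at a time gave these ranges where a sign changed. At day 21: Ahr -0.12 to 0.10, Nr1i2 -0.42 to 0.035, Por -0.15 to 0.90, Rxra -0.14 to 0.14. At day 4: Nr1i2 -0.32 to 0.36, Por -1.21 to 0.090. For the difference between days: Nr1i2 -0.51 to 0.17, Nr1i3 -0.41 to 0.58. For PBS day 21 against day 4: Ahr -0.39 to 0.10, Nr1i2 -0.54 to 0.14. For tumour day 21 against day 4: Nr1i3 -0.72 to 0.21, Por -0.65 to 0.49, Rxra -0.24 to 0.017.

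Over all genes, the 992 calls at day 21 became 584 with a mean of at least 50, 1778 with DESeq2 and 620 with only the groups compared, and 369 to 1169 with a library left out (369 without PBS day 21 replicate 12b, 443 without tumour day 21 replicate 7, 486 without 11a, 603 without 10a). They split into 684 higher and 308 lower, and into 700 and 574 with quantile normalization, which moved the median of all genes by -0.13 log2 units, as it did between the tumour groups, and by -0.16 for the difference between days. Total scaling moved it by 0.19 between the PBS groups and 0.15 between the tumour groups. The 1921 calls of tumour day 21 against day 4 became 1050 with a mean of at least 50, 576 with only the groups compared, and 728 to 2010 with a library left out. They split into 1326 and 595, into 966 and 1001 with quantile normalization, and into 1464 and 290 with total scaling. The 87 calls of the difference became 38 with a pseudocount of 0.5, 166 without a filter, 1 with a mean of at least 50, 54 with total scaling, 0 with edgeR (TMM or RLE), 479 with DESeq2, 43 with the Arntl covariate and 0 to 173 with a library left out. DESeq2 called 1 gene at day 4 and 5 between PBS groups, where leaving out a library gave 0 to 3 and 0 to 15. With only the groups compared, the difference between days could not be fitted. The lowest read count of a member in a library was 219 (Ahr).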

Other observations

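Alas1, the rate-limiting enzyme of haem synthesis and a listed CAR and PXR target, had a wide range between mice. Its normalized counts were 21941, 31793 and 4975 in PBS day 4 and 31524, 12977 and 23367 in tumour day 4. They were 19162, 2805 and 7931 in PBS day 21 and 18667, 17434 and 20276 in tumour day 21. The lowest mouse was PBS day 21 replicate 11a, which also had the highest Arntl. The day 21 log2 fold change was 1.32 ± 0.74 (SE, limma adjusted p = 0.326), opposite in sign to 23 of the 25 targets. Cyp3a13 was the other target with a positive value, at 0.81 (adjusted p = 0.0726).

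Hsp90aa1, a chaperone that holds the aryl hydrocarbon receptor and CAR in the cytosol, had 1810, 1167 and 617 normalized counts in PBS day 4 and 1215, 2814 and 3028 in tumour day 4. At day 21 it had 2084, 579.5 and 2349 in PBS and 3105, 2077 and 2004 in tumour mice. The day 4 log2 fold change was 0.996 (limma adjusted p = 0.850), with overlapping groups.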
